A study of Mus musculus with 14 samples.

Results

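The brain endothelial and mural cell genes are 37 genes chosen by name as markers of the cells that build cerebral blood vessels. They are 32 genes of endothelial cells and of the blood-brain barrier, and 5 genes of mural cells, the pericytes and smooth muscle cells that wrap the vessel wall. All 37 were matched to a row of the count table, which holds 24100 genes. The genes were picked by symbol, with earlier results of these data known.

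The RNA came from mouse cerebellum at postnatal day 21, from Astn2 wild type (WT) littermates and Astn2 knockout (KO) littermates that lack the neuronal membrane protein ASTN2. Mice of both genotypes carried the Tg(Pcp2-L10a-EGFP) bacTRAP transgene, in which the Purkinje cell promoter Pcp2 drives a ribosomal protein tagged with EGFP. Translating ribosome affinity purification (TRAP) captures tagged ribosomes with antibodies to GFP, and the bound RNA was sequenced. The input libraries are a small share of the cleared homogenate that was kept back before capture, so they stand for whole cerebellum. There were 4 input WT libraries (1 female, 3 male), 3 input KO libraries (2 female, 1 male), 3 TRAP WT libraries (1 female, 2 male) and 4 TRAP KO libraries (2 female, 2 male). How the Astn2 allele was made is not given in the sources used here. The labels do not say which libraries share a mouse, so the p-values measure the spread between these libraries.

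Endothelial cells of the brain line the vessel lumen and are sealed by tight junctions, so nutrients have to pass through dedicated transporters and many drugs are pumped back into the blood. VEGF and angiopoietin receptors on these cells control vessel growth and stability, and SOX17, SOX18 and the ETS factor ERG maintain endothelial identity. Pericytes and smooth muscle cells sit on the outer side of the vessel; the former are recruited through PDGFRB and help to keep the barrier closed.

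The libraries held 18.8 to 54.2 M counts each (M, 1000000 counts). The unit of level is CPM, that is counts per 1000000 after scaling for library composition, and 3 counts corresponded to 0.0438 CPM in the deepest input library and to 0.205 CPM in the shallowest TRAP library. Astn2, the targeted gene, lay at 88.7 to 104 CPM in input WT and at 0.729 to 0.968 CPM in input KO, and at 117 to 146 CPM in TRAP WT against 1.06 to 2.11 CPM in TRAP KO. Every KO library was thus far below every WT library for the targeted gene. Purkinje markers were higher in TRAP than in input in both genotypes, 6 of 6 past the threshold.

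All 37 vascular genes were detected in every input library, with a lowest count of 19. Per kilobase of the longest coding transcript, the level in input WT was highest for Slc7a5, the large neutral amino acid transporter, at 14.1 CPM per kb. Slc2a1, the glucose transporter of the barrier, followed at 7.21 CPM per kb, and Vtn, a pericyte-made adhesion protein, at 7.01 CPM per kb. The lowest were Robo4, an endothelial guidance receptor, at 0.204 CPM per kb and Emcn, a sialomucin of the endothelial surface, at 0.294 CPM per kb. The ladder was continuous rather than stepped: of the 36 neighbouring pairs in this order, only Slc7a5 and Slc2a1 had all 4 input WT libraries apart. Several of the more abundant members, among them Slc7a5, Slc2a1 and Slc16a1, are also made by other brain cells, so these levels are not a measure of vessels alone.

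Cldn5, Pecam1 and Flt1 are the markers by which the set is named. Cldn5 encodes claudin-5, the main sealing protein of barrier tight junctions. Its level in input WT was 8.36, 9.79, 9.60 and 6.11 CPM in replicates 1 to 4, and in input KO it was 6.47, 5.66 and 3.84 CPM. The groups overlapped, because WT replicate 4 lay below KO replicate 1. In TRAP it was 4.31, 6.13 and 4.35 CPM in WT and 4.56, 4.35, 3.87 and 2.17 CPM in KO, and the KO range took in both of the lower WT libraries.

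Pecam1 encodes the junctional adhesion molecule CD31. It was at 2.28, 2.64, 3.34 and 2.10 CPM in input WT and at 2.48, 2.20 and 1.24 CPM in input KO. Only the third KO library lay outside the WT range. In TRAP the levels were 1.03, 0.900 and 0.664 CPM in WT and 0.780, 1.09, 0.528 and 0.354 CPM in KO, with overlapping groups.

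Flt1 encodes VEGF receptor 1, which binds VEGF without strong signalling. It was at 2.95, 2.43, 3.27 and 2.68 CPM in input WT and at 2.81, 2.54 and 1.91 CPM in input KO. Again the third KO library alone lay below every WT library. In TRAP WT the libraries stood at 0.479, 0.450 and 2.12 CPM, a spread wider than that of the KO libraries at 1.56, 1.72, 1.11 and 0.796 CPM. The 3 markers were therefore present in whole cerebellum and lower in the captured RNA, as measured here for WT: the log2 fold change of TRAP against input was -0.80 ± 0.25 (SE) for Cldn5, -1.68 ± 0.32 for Pecam1 and -1.38 ± 0.43 for Flt1, each past the threshold by edgeR's quasi-likelihood test (adjusted p = 0.0116, 0.000296 and 0.00983). Without TRAP WT replicate 1, Cldn5 (-0.61, adjusted p = 0.0688) and Flt1 (-0.98, adjusted p = 0.0532) no longer passed. Without TRAP WT replicate 3, in which Flt1 was highest, its fold change was -2.74.

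**Figure D1:**
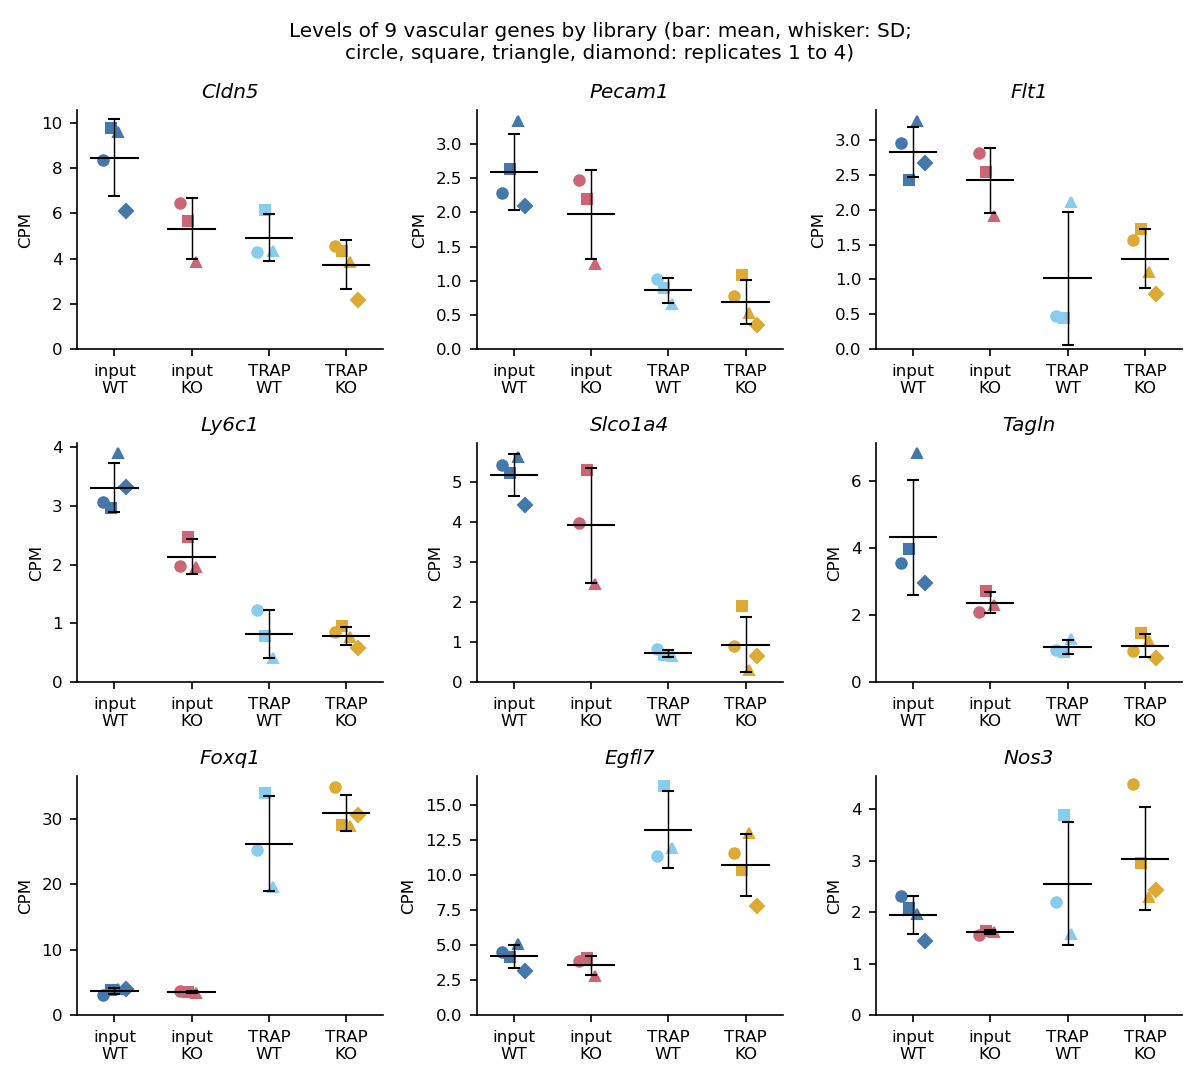
Levels in CPM (vertical axes, from 0) of 9 vascular genes in the 4 groups; each symbol is a library, its shape gives the replicate number, the bar is the mean and the whisker the SD. Cldn5, Pecam1 and Flt1 are lower in TRAP than in input on average, whereas Foxq1 and Egfl7 lie above every input library in every TRAP library.

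Promoter windows of 250 bases before to 50 after the start site were taken from RefSeq (GRCm38.p6), which held 30 windows for 22 of the 37 genes. They were searched because ERG is a member of the set and belongs to the ETS family, whose binding sites share a GGAA core. The windows of 5 genes are shown, each 5′ to 3′ in the direction of the gene: Cldn5 and Flt1 as naming markers, the receptor genes Eng and Tie1, and Egfl7, which was higher in TRAP. Capitals mark AGGAAG or its reverse complement CTTCCT.
Cldn5 chr16:18776597-18776896, plus strand: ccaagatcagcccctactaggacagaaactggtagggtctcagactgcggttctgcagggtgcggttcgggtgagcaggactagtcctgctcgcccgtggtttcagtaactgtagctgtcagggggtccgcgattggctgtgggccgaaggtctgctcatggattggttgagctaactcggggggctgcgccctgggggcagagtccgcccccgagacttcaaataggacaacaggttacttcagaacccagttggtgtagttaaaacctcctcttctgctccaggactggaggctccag
Flt1 chr5:147725962-147726261, minus strand: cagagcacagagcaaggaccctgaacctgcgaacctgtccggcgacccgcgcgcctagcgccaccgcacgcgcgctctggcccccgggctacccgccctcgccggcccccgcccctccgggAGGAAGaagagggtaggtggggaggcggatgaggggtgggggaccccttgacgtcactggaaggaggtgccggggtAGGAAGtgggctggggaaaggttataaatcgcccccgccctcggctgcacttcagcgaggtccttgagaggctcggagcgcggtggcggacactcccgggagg
Eng chr2:32646345-32646644, plus strand: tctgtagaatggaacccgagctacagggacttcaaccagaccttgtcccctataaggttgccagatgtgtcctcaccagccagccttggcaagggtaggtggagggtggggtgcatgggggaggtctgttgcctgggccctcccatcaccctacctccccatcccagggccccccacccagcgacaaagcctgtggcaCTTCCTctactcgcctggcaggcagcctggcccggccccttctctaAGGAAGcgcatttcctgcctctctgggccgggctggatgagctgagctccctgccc
Tie1 chr4:118489800-118490099, minus strand: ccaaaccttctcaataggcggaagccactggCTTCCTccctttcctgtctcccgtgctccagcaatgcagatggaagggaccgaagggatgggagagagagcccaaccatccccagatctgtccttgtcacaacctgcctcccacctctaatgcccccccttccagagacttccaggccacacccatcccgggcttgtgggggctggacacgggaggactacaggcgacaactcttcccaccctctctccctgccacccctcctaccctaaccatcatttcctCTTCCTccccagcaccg
Egfl7 chr2:26580833-26581132, plus strand: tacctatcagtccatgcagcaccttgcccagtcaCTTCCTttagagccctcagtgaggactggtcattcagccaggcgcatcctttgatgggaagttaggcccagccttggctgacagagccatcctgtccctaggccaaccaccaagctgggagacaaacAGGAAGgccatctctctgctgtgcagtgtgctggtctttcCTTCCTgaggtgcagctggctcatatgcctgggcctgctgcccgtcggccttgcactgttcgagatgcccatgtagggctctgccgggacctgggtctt
The Cldn5 window holds no match. Flt1 has its matches with the first base 129 and 53 bases before the start, Eng 52 and 6 bases before it, and Tie1 219 bases before and 34 bases after it. This Egfl7 window, the first of those listed for the gene, has matches 216, 89 and 49 bases before its start. The other Egfl7 windows, not shown, hold 2 and 0 matches. Among the receptor genes not shown, the windows of Kdr and Tek hold 0 matches and that of Robo4 holds 1.

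Searched on both strands, AGGAAG was present in 16 of the 30 vascular windows (53.3%), from 13 genes, and in 34.0% of all 21752 windows of the same length. The other ETS spelling searched, CCGGAA, which shares the GGAA core but cannot coincide with AGGAAG at the same core, was in 2 windows (6.67%) against 18.7% of all. The GATA factor motif searched, AGATAA, was in 4 (13.3%) against 9.58%. The strict form of the CArG box, the serum response factor motif of smooth muscle genes, was in 0 of the 30 windows against 1.49% of all. It required that all bases between CC and GG be A or T. The Acta2 window holds the near spellings ccctatatgg and ccttgtttgg, which this form leaves out, and no window was listed for Tagln. The counts above are matches of letters, and windows of 1 gene can overlap.

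The first comparison asked which vascular transcripts remained in the RNA captured from Purkinje cell ribosomes. In WT, 32 of the 37 genes were lower in TRAP than in input and 2 were higher by edgeR's quasi-likelihood test at an adjusted p of 0.05. Of all 16042 genes tested, 75.5% passed in either direction, 38.5% as lower. The median log2 fold change of the 37 genes was -1.69, against -0.09 for all genes. In 31 of the 37 genes every TRAP WT library lay below every input WT library (38.2% of all genes) and in 3 above (34.4% of all genes). On library totals, without the composition factor, the median over all genes was -0.91 and 75.8% of the genes called were lower, in place of 51.0%. Of all 16042 genes tested, 9801 were then lower, in place of 6181. Of the 37 vascular genes, 33 were then lower and 2 higher.

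Most genes of each role were depleted. All 5 junction and adhesion genes were lower, from Cldn5 (-0.80) to Esam (-1.72), an adhesion molecule of endothelial tight junctions. All 7 genes of the receptor list (Flt1, Kdr, Tek, Tie1, Ptprb, Eng and Robo4) were lower, with a median of -1.95. Among them was Tie1 at -2.26 ± 0.40, the orphan partner of the angiopoietin receptor TEK. Of the 7 transporter genes 5 were lower and of the 9 surface and secreted genes 7. Of the 4 transcription factor genes, Sox17 (-2.26), Erg (-1.96) and Sox18 (-1.80) were lower. All 5 mural genes were lower with a median of -1.69, from Higd1b at -1.27 to the PDGF receptor gene Pdgfrb at -2.04 ± 0.29.

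The 3 genes with the strongest depletion in WT were Ly6a, Slco1a4 and Mfsd2a. Ly6a, a surface antigen of endothelial and stem cells (Sca-1), was at 1.05, 1.02, 2.0 and 1.09 CPM in input WT and at 0.137, 0.113 and 0.207 CPM in TRAP WT. The groups were far apart, but the TRAP levels rest on few counts, with a lowest TRAP count of 2. Its log2 fold change was -3.04 ± 0.54 (adjusted p = 0.000167 by edgeR's quasi-likelihood test). Of its 31-base words, 21.9% are also found in Ly6c1, so reads of the pair may have been divided between them.

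Slco1a4, the organic anion transporter OATP1A4 of the barrier, was at 5.41, 5.21, 5.61 and 4.41 CPM in input WT and at 0.820, 0.675 and 0.664 CPM in TRAP WT. No TRAP library came near an input library, and the fold was -2.92 ± 0.36 on the log2 scale (adjusted p = 6.14e-06 by edgeR's quasi-likelihood test). Mfsd2a, the lysolipid transporter that restrains transcytosis in barrier endothelium, was at 5.14, 6.13, 5.54 and 7.17 CPM in input WT and at 2.53, 0.788 and 0.498 CPM in TRAP WT. TRAP WT replicate 1 held several times the level of the other TRAP WT libraries and still lay below all input WT libraries (-2.39 ± 0.40, adjusted p = 9.77e-05). Its fold change was -3.26 without that library and -1.96 without TRAP WT replicate 3.

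Foxq1 and Egfl7 went the other way. Foxq1 encodes a forkhead transcription factor. It was at 3.04, 3.80, 3.95 and 3.95 CPM in input WT and at 25.2, 33.9 and 19.6 CPM in TRAP WT. In KO it was at 3.68, 3.51 and 3.41 CPM in input and at 35.0, 29.2, 29.0 and 30.6 CPM in TRAP. Every TRAP library exceeded every input library severalfold. It rose 7.12-fold in WT (log2 2.83 ± 0.17, adjusted p = 5.08e-09) and 8.71-fold in KO (3.12 ± 0.18, adjusted p = 5.67e-09) by edgeR's quasi-likelihood test.

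Egfl7 encodes a secreted factor of the vessel matrix and hosts the microRNA miR-126 in an intron. It was at 4.50, 4.11, 5.07 and 3.13 CPM in input WT and at 11.3, 16.4 and 11.9 CPM in TRAP WT. In KO it was at 3.85, 4.04 and 2.79 CPM in input and at 11.6, 10.4, 13.0 and 7.79 CPM in TRAP. The fractions did not overlap in either genotype, and the log2 fold change was 1.65 ± 0.22 in WT (adjusted p = 9.94e-06) and 1.61 ± 0.23 in KO (adjusted p = 2.10e-05, edgeR's quasi-likelihood test). The microRNA rows Mir126a and Mir126b held 2 and 0 counts over all libraries, against 3074 for Egfl7. On library totals Foxq1 stood at 2.01 and Egfl7 at 0.82 in WT, both still past the threshold.

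Abcg2, Nos3 and Slc16a1 did not pass in WT. Abcg2, the drug efflux pump BCRP, was at 1.90, 1.72, 1.68 and 2.22 CPM in input WT and at 2.80, 2.64 and 2.41 CPM in TRAP WT. The groups did not overlap, yet the fold change of 0.48 ± 0.21 had an adjusted p of 0.0542 by edgeR's quasi-likelihood test. Slc16a1, the monocarboxylate transporter MCT1, was at 25.5 to 29.1 CPM in input WT and at 24.0 to 32.1 CPM in TRAP WT, with a log2 difference of 0.07 ± 0.13. Nos3, the endothelial nitric oxide synthase, was at 1.43 to 2.31 CPM in input WT and at 1.58 to 3.88 CPM in TRAP WT, and its 0.38 ± 0.30 did not pass. Nos3 overlaps Atg9b, and how reads of overlapping genes were assigned is not given in the sources used here. On library totals these 3 genes lay below 0 in WT (-0.34, -0.45 and -0.75).

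In KO, 24 of the 37 genes were lower in TRAP than in input and 3 were higher, where 75.9% of all genes tested passed, 39.6% as lower. On library totals it was 32 lower and 2 higher, with 75.5% of all genes called being lower in place of 52.2%. Of all 16042 genes tested, 9670 were lower on that scaling, in place of 6359. In the main fit the median of the 37 was -1.17, against -0.11 for all genes. The 3 higher genes were Foxq1, Egfl7 and Nos3 (0.94 ± 0.30, adjusted p = 0.0106 by edgeR's quasi-likelihood test); without TRAP KO replicate 1, Nos3 did not pass (adjusted p = 0.0605). The genes that fell in KO were 24 of the 32 that fell in WT, and all 24 had also fallen in WT. The other 8 (Cldn5, Cdh5, Flt1, Tie1, Erg, Ly6a, Vwf and Vtn) were below 0 in KO without passing, and the test of the difference between genotypes is the interaction described last.

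**Figure D2:**
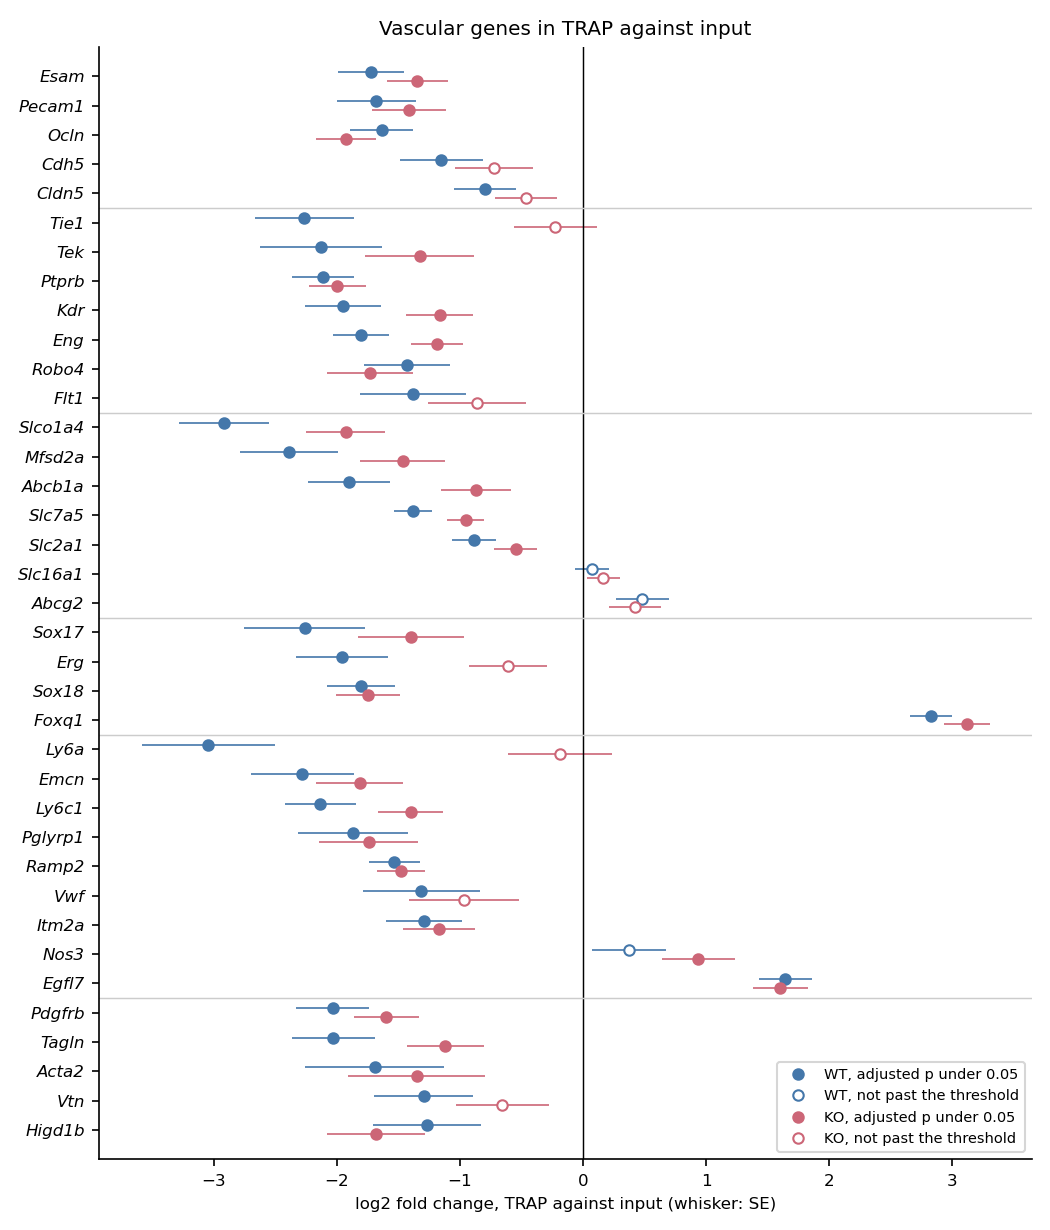
Log2 fold change of TRAP against input (horizontal axis, whisker SE) for the 37 vascular genes, grouped by role, in WT (blue) and KO (red); filled symbols passed an adjusted p of 0.05. Foxq1 and Egfl7 stand to the right in both genotypes, and Slco1a4 and Ly6a are the farthest to the left in WT at -2.92 and -3.04.

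Markers of cell types other than Purkinje cells gave a yardstick; the granule and glial ones were lower in TRAP but still detected. The summed level in TRAP WT was 665 CPM for granule cell genes against 3029 CPM in input WT, and 1172 against 5487 CPM for oligodendrocyte genes. The median log2 fold change in WT was -2.41 for 5 granule cell genes, -2.11 for 5 oligodendrocyte genes, -2.10 for 5 microglial genes and -2.04 for 5 astroglial genes, each with 5 of 5 past the threshold. The 8 fibroblast genes stood at -1.83 with 7 lower and 1 higher, and the 5 choroid plexus genes at -1.43 with 1 lower past the threshold. The vascular median of -1.69 was nearer to 0 than those of the granule, glial and fibroblast lists and farther from it than that of the choroid plexus list, and the difference between lists was not tested. Purkinje genes stood at a median of 3.66.

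Further genes of the same pathways, listed by function, behaved much like the members in direction. Of 23 other endothelial genes tested in WT, 16 were lower and 3 higher. The lower ones were led by Cd34 (-3.08 ± 0.26), a sialomucin of the endothelial surface, and the higher ones were Slc19a3 (1.22), a thiamine transporter, Bsg (0.73), the chaperone of MCT1, and Plvap (0.43), a diaphragm protein of fenestrated vessels. Of 13 other mural genes, 12 were lower, led by Lmod1 (-4.45 ± 0.62), a smooth muscle leiomodin, and 0 were higher.

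Of the Wnt genes that set up the barrier programme, 12 of 15 were lower and 3 were higher in TRAP WT. Lower ones included Sox7 (-2.75), an endothelial transcription factor, and the co-receptor gene Lrp5 (-2.54). The higher genes were Tspan12 (1.20) and Fzd4 (1.15), which act together in the Norrin receptor complex, and Ctnnb1 (1.00), which encodes beta-catenin. Of 14 genes for VEGF, angiopoietin and PDGF ligands and for their co-receptors, 13 were lower. Vegfb was the exception at 2.49 ± 0.13, with 311 CPM in TRAP WT against 54.9 CPM in input WT. Angpt2, an angiopoietin that destabilises vessels, was the lowest of the list at -2.34.

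The second comparison asked whether vascular transcripts differed between KO and WT in whole cerebellum. None of the 37 genes passed an adjusted p of 0.05 by edgeR's quasi-likelihood test, and 0.0188% of the 15997 genes tested did (3 genes). By DESeq2's Wald test 1 of the 37 passed, Cldn5 (log2 fold change -0.83, adjusted p = 0.00652), where 1.84% of all genes passed. At an unadjusted p under 0.05, 11 of the 37 genes were lower in KO and 0 were higher, against 7.50% of all genes lower and 6.24% higher. The log2 fold change was under 0 for 36 of the 37, against 52.2% of all genes, with a median of -0.35 against -0.01. In 6 genes every KO library lay below every WT library (4.24% of all genes) and in 1 gene, Higd1b, above (6.10% of all genes). That most of these genes lean lower in input KO was known when the set was named, so the counts describe the lean and are no new support for it. In such bulk RNA, fewer cells of a type and less RNA per cell cannot be told apart.

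The 6 genes with the smallest p in input were Cldn5, Ly6c1, Ly6a, Eng, Slco1a4 and Robo4. For Cldn5, whose levels stand above, the log2 fold change was -0.84 ± 0.23 (unadjusted p = 0.00491, adjusted p = 0.218, edgeR's quasi-likelihood test). Ly6c1, a surface antigen of the mouse brain endothelium, was at 3.07, 2.96, 3.89 and 3.31 CPM in WT and at 1.98, 2.48 and 1.96 CPM in KO. The groups did not overlap, and the difference was -0.65 ± 0.18 with an adjusted p of 0.221; 22.9% of its 31-base words are shared with Ly6c2.

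Ly6a was at 0.645, 0.607 and 0.525 CPM in input KO, below the WT libraries that start at 1.02 CPM (-1.11 ± 0.34, adjusted p = 0.240). Eng, the TGF-beta co-receptor endoglin, was at 5.76, 5.58, 5.09 and 4.10 CPM in WT and at 4.62, 4.49 and 3.56 CPM in KO. WT replicate 4 sat within the KO range, and the difference was -0.42 ± 0.14 (adjusted p = 0.265, edgeR's quasi-likelihood test). Slco1a4 stood at 3.98, 5.30 and 2.45 CPM in input KO, against 4.41 to 5.61 CPM in WT. KO replicate 2 was inside the WT range, KO replicate 1 below it and KO replicate 3 well below it. The difference was -0.67 ± 0.22 (adjusted p = 0.266, edgeR's quasi-likelihood test). Robo4 was at 1.29, 1.08, 0.919 and 0.760 CPM in WT and at 0.708, 0.886 and 0.598 CPM in KO, with overlapping groups (-0.67 ± 0.22, adjusted p = 0.266).

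The remaining genes with an unadjusted p under 0.05 were Tie1 (-0.92), Tagln (-0.82), Erg (-0.65), Cdh5 (-0.51) and Esam (-0.41). Tagln, the smooth muscle protein transgelin, was at 3.57, 3.98, 6.83 and 2.95 CPM in WT and at 2.10, 2.71 and 2.29 CPM in KO, with no overlap. Tagln overlaps Pcsk7, which had 11735 counts over all libraries against 1350 for Tagln. At the other end, Higd1b, a pericyte marker, was at 0.877, 0.858, 0.939 and 0.730 CPM in WT and at 1.14, 1.00 and 1.08 CPM in KO (0.31 ± 0.20, adjusted p = 0.532). It overlaps Eftud2, which had 30239 counts against 385. The estimates nearest to 0 were those of the tight junction gene Ocln and of Foxq1 (-0.012 ± 0.15).

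By role, the 5 junction genes had the lowest median, -0.51, and the 7 receptors stood at -0.42, the 4 transcription factor genes at -0.38, the 9 surface and secreted genes at -0.29, the 7 transporters at -0.24 and the 5 mural genes at -0.22. All 32 endothelial members were under 0, and 4 of the 5 mural members.

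The third KO library carried much of this lean. Input KO replicate 3, the only male KO input library, was the lowest of the 7 input libraries for 23 of the 37 genes (62.2%), and it was the lowest for 17.2% of all genes tested. The mean log2(CPM + 1) over the 37 genes was 2.21, 2.26, 2.45 and 2.17 in WT and 2.11, 2.14 and 1.90 in KO. The first 2 KO libraries were thus just below the lowest WT library, and the third lay apart. At the upper end, input WT replicate 3 was the highest library for 19 of the 37 genes (51.4%), and for 10.5% of all genes tested.

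**Figure D3:**
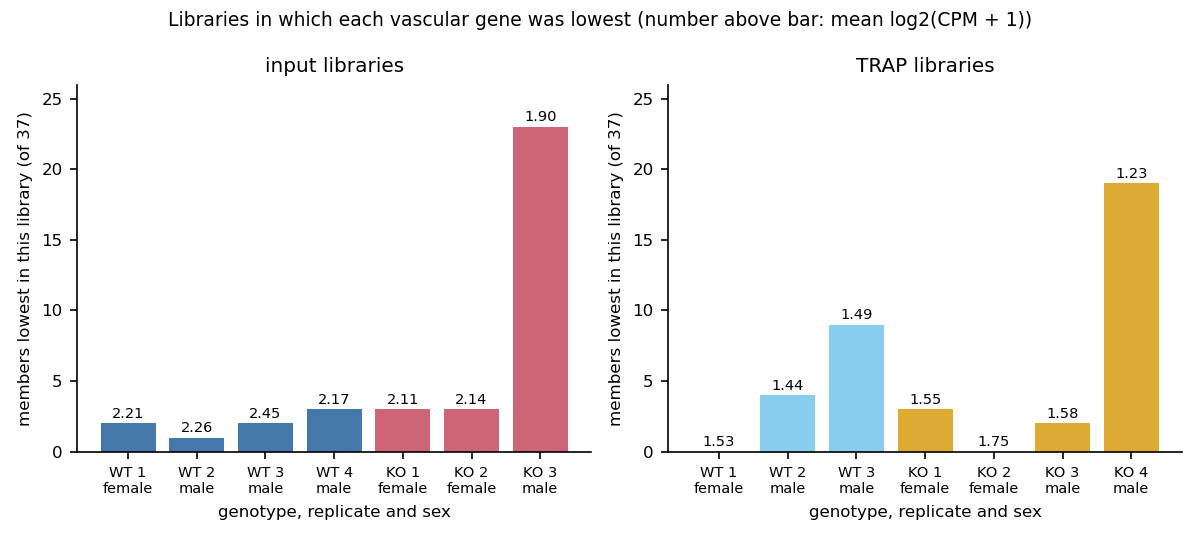
Number of the 37 vascular genes (bars, from 0) for which each input or TRAP library was the lowest of its fraction, with the mean log2(CPM + 1) over the genes written above each bar. Input KO replicate 3 was lowest for 23 genes and TRAP KO replicate 4 for 19.

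Without input KO replicate 3, 20 of the 37 genes were under 0, where 47.6% of all genes were, and the median was -0.050. None of the 37 then had an unadjusted p under 0.05 on the lower side, against 3.03% of all genes. Pecam1 changed sign, from -0.59 ± 0.30 to 0.056. Cldn5 stood at -0.44 ± 0.26 and Slco1a4 at -0.20 ± 0.22, while Robo4 stood at -0.66 and Cdh5 at -0.48, close to their values with all libraries. This fit keeps sex as a covariate, and without that library the KO input libraries are both female while WT has a single female library, so it rests on that WT library.

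Left out together with the sex covariate, a choice made after seeing the data, the same library left 30 of the 37 genes under 0 (50.6% of all genes) with a median of -0.22 and 5 genes at an unadjusted p under 0.05 on the lower side (4.08% of all genes). Cldn5 was then at -0.49 (unadjusted p = 0.0247, adjusted p = 0.553, edgeR's quasi-likelihood test) and Ly6a at -1.06 (adjusted p = 0.515). Cdh5 was at -0.62, and Robo4 at -0.34 (unadjusted p = 0.209, edgeR's quasi-likelihood test), nearer to 0 than with the covariate. Within sexes, with no test, 21 of the 37 genes were lower in the 2 female KO libraries than in the female WT library, where 53.0% of all genes were, with a median difference of -0.07 in log2(CPM + 1). In males, 36 of 37 were lower in KO replicate 3 than in the mean of the 3 WT libraries, where 44.8% of all genes were, with a median of -0.37. Sex and that library cannot be told apart in KO. Without input WT replicate 1, the only female WT input library, the median moved the other way, to -0.58. With sex as a covariate, that fit rests on KO replicate 3 against the 3 male WT libraries.

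**Figure D4:**
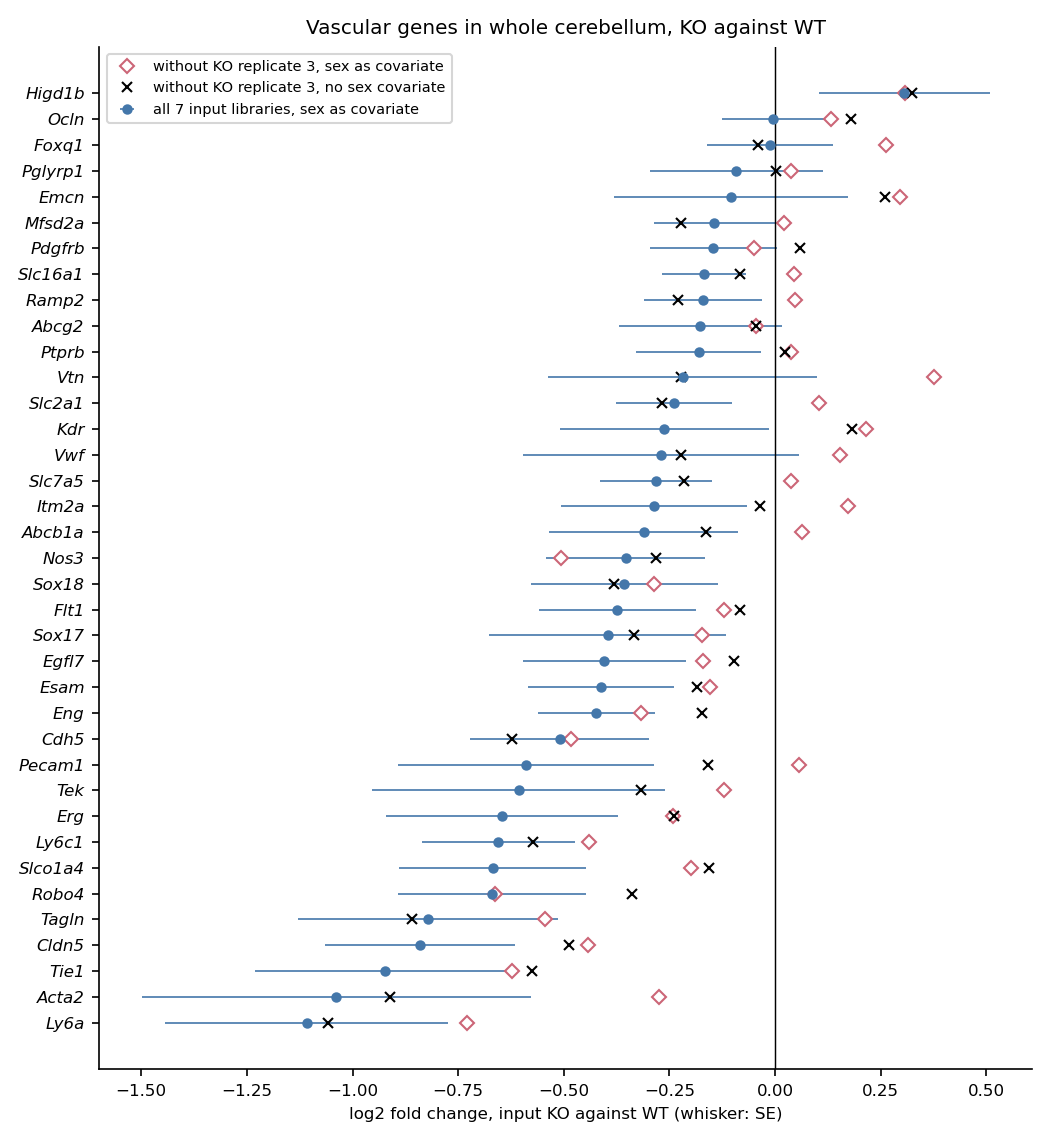
Log2 fold change of input KO against WT (horizontal axis) for the 37 vascular genes, with all 7 libraries (blue, whisker SE), without KO replicate 3 (open red diamonds) and without it and without the sex covariate (black crosses). With all libraries 36 genes lie left of 0, without KO replicate 3 it is 20, and with the covariate also dropped it is 30.

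Further gene lists were counted in the same way in the input libraries, where 52.2% of all genes were under 0. Of 23 other endothelial genes, 20 were under 0 with a median of -0.36 and 9 at an unadjusted p under 0.05, none past the adjusted threshold; without KO replicate 3 it was 15 of 23 with a median of -0.15, and 19 of 23 with a median of -0.20 when the sex covariate was also dropped. The smallest p values of that list belonged to Adgrf5 (-0.70 ± 0.17, adjusted p = 0.195 by edgeR's quasi-likelihood test), an adhesion receptor, Cd34 (-0.56 ± 0.16) and Ltbp4 (-0.54 ± 0.16), a matrix protein. Of the ligands and co-receptors, 12 of 14 were under 0, and Vegfa, the main growth factor for vessels, was at 66.9 CPM in KO against 87.1 CPM in WT (-0.51 ± 0.11, adjusted p = 0.176) with overlapping groups. Other mural genes were under 0 in 11 of 13, in 4 of 13 without KO replicate 3, and in 6 of 13 when the sex covariate was also dropped. Of the Wnt barrier genes 9 of 15 were under 0 and 6 above, a split near that of all genes, with a median of -0.14. At an unadjusted p under 0.05, 4 of the 15 were lower and 0 higher, against 7.50% and 6.24% of all genes. Without KO replicate 3, 0 were lower at that p, with or without the sex covariate. The genes under 0 included Reck (-0.44) and Adgra2 (-0.28), which encode the co-receptor pair for Wnt7 ligands in barrier endothelium. Those above 0 included Ctnnb1 (0.16) and the feedback inhibitor gene Nkd1 (0.15).

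Blood and the other tissue markers varied with the libraries too. The summed level of 3 haemoglobin and haem genes was 1710 to 9373 CPM in input WT and 457 to 3395 CPM in input KO, lowest in KO replicate 3, and all 3 genes were under 0 without passing. Without that library 0 of the 3 were under 0 with the sex covariate, and 3 of 3 without it (median -1.29). KO replicate 2, at 510 CPM, also lay below every WT library. The summed oligodendrocyte markers were at 4658 to 6294 CPM in WT and at 4251 to 4935 CPM in KO, with 5 of 5 under 0. The 8 perivascular and meningeal fibroblast genes, by contrast, were above 0 in 7, at 104 to 157 CPM in WT and 87.6 to 202 CPM in KO. Granule, astroglial and microglial markers had medians of 0.04, 0.11 and 0.05. Choroid plexus genes ranged from 9.45 to 392 CPM in summed level in WT and from 15.9 to 1142 CPM in KO, with Folr1 at 0 in a library. Purkinje markers were above 0 in 5 of 6, at 4920 to 5322 CPM in WT and 5200 to 5933 CPM in KO, highest in KO replicate 3. None of these blood, oligodendrocyte, fibroblast or Purkinje markers was at 0 in an input library. Their part in the vascular result was not tested.

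The third comparison set KO against WT within the captured RNA. Of the 37 genes, 31 had enough counts to be tested; Tek, Robo4, Ly6a, Emcn, Pglyrp1 and Higd1b did not. None passed an adjusted p of 0.05 by edgeR's quasi-likelihood test, where 0.00707% of 14145 genes did, and none passed by DESeq2's Wald test. Of the 31, 0 reached an unadjusted p under 0.05, against 0.827% of all genes lower and 0.672% higher. The log2 fold change was under 0 for 14 (49.7% of all genes) and above 0 for 17, with a median of 0.05 against 0.00. No gene of the 37 had its 4 KO libraries all below its 3 WT libraries (2.69% of all genes) or all above them (1.80%). By role, the 5 junction genes were all under 0 (median -0.21) and the 5 receptor genes tested all above 0 (median 0.24), none past the threshold.

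Tie1 had the smallest p in TRAP, at 0.479, 0.394 and 0.207 CPM in WT and 0.819, 1.09, 0.880 and 0.354 CPM in KO. All KO libraries but replicate 4 were above WT (1.02 ± 0.49, adjusted p = 1.00 by edgeR's quasi-likelihood test). Cldn5 was at -0.46 ± 0.31. Acta2, smooth muscle actin, was at 1.30, 0.281 and 2.41 CPM in WT and at 0.858, 1.19, 0.821 and 0.265 CPM in KO, a range wide enough that its -0.94 ± 0.70 became 0.10 without TRAP WT replicate 3.

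TRAP KO replicate 4 was the lowest TRAP library for 19 of the 37 genes, and for 17.7% of all genes tested. The mean log2(CPM + 1) over the 37 genes was 1.53, 1.44 and 1.49 in TRAP WT and 1.55, 1.75, 1.58 and 1.23 in TRAP KO. The same library had the lowest summed astroglial (228 CPM), oligodendrocyte (686 CPM) and microglial (3.89 CPM) markers of the 7 TRAP libraries. Granule cell markers were lowest in TRAP WT replicate 3, at 355 CPM against 396 CPM in TRAP KO replicate 4. That WT library was also close for oligodendrocyte markers, at 712 CPM. The part of these markers in the vascular levels was not tested. Without TRAP KO replicate 4 the median of the members tested was 0.22, and without TRAP KO replicate 3 it was -0.18, so the sign of this median was set by single libraries.

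Whether the depletion in TRAP differed between genotypes was tested as an interaction over all 14 libraries, KO ratio against WT ratio. None of the 37 genes passed, and 0.00% of the 16042 genes did. The estimate was above 0, that is a higher ratio of TRAP to input in KO, for 32 of the 37, where 47.0% of all genes were, with a median of 0.43 against -0.02. The interaction sets the KO against WT difference in TRAP against that in input. Those differences had medians of 0.05 (31 genes tested) and -0.35. The lower levels in input KO were known when the set was named, so this count restates that lean in part and is no new support for it. At an unadjusted p under 0.05, 4 genes were above 0 (1.42% of all genes): Ly6a (2.86 ± 0.71), Tie1 (2.04 ± 0.53), Erg (1.35 ± 0.50) and Abcb1a (1.04 ± 0.45), each with an adjusted p of 0.999 by edgeR's quasi-likelihood test.

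The levels behind the Ly6a estimate were low. In TRAP KO it was at 0.624, 0.842, 0.411 and 0.133 CPM, and in TRAP WT it stayed at or below 0.207 CPM. Only KO replicate 4 fell within the WT range. Tie1 in input was at 1.70, 1.23, 2.27 and 1.25 CPM in WT and at 1.21, 0.968 and 0.715 CPM in KO, so the KO libraries were the lower ones in input and mostly the higher ones in TRAP. Abcb1a, the P-glycoprotein pump, overlaps Rundc3b and shares 21.4% of its 31-base words with Abcb1b. The interaction uses the same input libraries as the genotype comparison above, and without input KO replicate 3 its count above 0 was lower, with 8 of the 37 under 0 in place of 5.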

How the data were processed

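RNA-seq of 14 mouse cerebellum libraries (7 input, 7 TRAP) was deposited as counts per gene, integer and not normalized, under Entrez numbers. The submitters' processing notes name Salmon 0.8.2 and mm10; how gene counts were made from its output, and with which strand setting, is not given in the sources used here, so counts of overlapping genes and near-identical copies are uncertain. Symbols came from RefSeq (GRCm38.p6), matching 24045 of 24100 genes. Promoters came from the RefSeq table of that build. Transcript lengths came from GENCODE annotation of the same assembly.

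The deposited counts were tested with edgeR 4.0.16 (R 4.3.3) by its quasi-likelihood test, two-sided, with TMM factors, filterByExpr and Benjamini-Hochberg adjustment over all genes tested, at 0.05. The genotype fits used 1 fraction each and included sex. The other contrasts came from a single fit of all 14 libraries, with group means plus sex. DESeq2 1.42.0 was an alternative, as were other scalings, no filter, no sex covariate, a replicate block and leaving out each library. CPM levels use TMM factors over all 14 libraries, and mean levels use log2(CPM + 1). Standard errors are the absolute log2 fold change over the square root of F. On simulated counts with the real means, 82.7% of 2-fold changes seeded in the input comparison were recovered over 15997 genes, and 36.1% in the TRAP genotype comparison over 14145 genes. The seeded genes were drawn at random from all genes tested. Changes under 2-fold were not simulated, so these shares do not give the recovery for a lean of the size seen in the vascular genes.

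Pairs of libraries in a group differed by more than sampling noise (chi-square per degree of freedom 8.63 to 267), so each was counted as 1 replicate. Counting limits of 3 counts cover counting error only. Genes named are the 3 markers, those with the smallest p in each genotype comparison, those most and least depleted in TRAP, and, of the other lists, those past the threshold with the largest change or with the smallest p. The members, the gene lists and this rule were chosen with earlier results of these data known. Genes outside it are named where a count of few genes, an overlap or a change of sign concerns them, after their values were seen. All columns matched a sample label.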

Additional observations from a re-analysis of the deposited data

Results flagged for a closer look

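Of 76 sets of 4 libraries examined (each of the 37 genes, and their mean level, in input WT and in TRAP KO), 4 held a library farther from the others than Dixon's 95% critical value allows; chance alone gives about 1 in 20. In 3 of the 4 the library was input WT replicate 3, at the high end. There Ly6a was at 2.0 CPM against 1.02 to 1.09 CPM in the other input WT libraries (gap 0.910 of the range on the log2(CPM + 1) scale). Vwf, the clotting factor carrier of endothelium, was at 5.32 CPM against 2.52 to 2.74 CPM (gap 0.899). Acta2 was at 8.0 CPM against 2.86 to 3.37 CPM (gap 0.853). Foxq1 was low in input WT replicate 1, at 3.04 CPM against 3.80 to 3.95 CPM (gap 0.848).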

How the results depend on the processing

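For the named genes, 862 of 891 alternative values kept their direction and their side of the threshold, 13 changed sign, 12 passed it newly and 4 no longer did (values without an adjusted p from DESeq2 left out). The 0 calls in input KO against WT became 1 with DESeq2's Wald test, and stayed 0 (0 to 0) with each library left out, as in TRAP and in the interaction. In input, the members under 0 numbered 20 to 36 and their median lay between -0.58 and -0.050 with a library left out; without KO replicate 3 and the sex covariate the median was -0.22. Pecam1 ranged from -1.15 to 0.056.

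In TRAP KO against WT, leaving out a library gave 10 to 21 members under 0, medians of -0.18 to 0.22, Flt1 from -0.44 to 1.43 (-0.03 without TRAP WT replicate 2) and Acta2 from -1.35 to 0.10. Same-numbered libraries of KO and WT deviated together with correlations of -0.03 to 0.14 in input and -0.20 to -0.05 in TRAP. Same-numbered input and TRAP libraries stood at 0.10 to 0.29 in WT and -0.13 to 0.23 in KO. Differently numbered ones stood at -0.23 to 0.18 in WT and -0.23 to 0.35 in KO. For input WT replicates 1 to 3 and input KO replicates 1 and 2, the same-numbered TRAP library correlated best. Input KO replicate 3 correlated best with TRAP KO replicate 4. The labels do not say which libraries share a mouse, so the number was not treated as a pairing in the main fits. With a replicate block, calls were 0 in both genotype comparisons and the interaction, 34 in WT and 26 in KO for TRAP against input; in TRAP 8 members were under 0 with a median of 0.22, the input median was -0.35, the interaction median 0.63, and Ly6a in KO stood at 0.067.

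For TRAP against input, library totals moved the median to -2.51 in WT and -1.90 in KO, and Abcg2 (-0.34 and -0.31), Nos3 (-0.45 in WT) and Slc16a1 (-0.75 and -0.57) changed sign; this scaling leaves out the composition factor. With a library left out, WT gave 29 to 35 calls and medians of -1.88 to -1.63, with Nos3 from -0.21 to 0.61 and Slc16a1 from -0.070 to 0.21; KO gave 25 to 29 calls and medians of -1.41 to -1.04, with Ly6a up to 0.11. For the interaction, members under 0 numbered 3 on library totals and 4 to 9 with a library left out, with medians of 0.29 to 0.56. The mean level over members, TRAP minus input, was -0.79 in WT and -0.52 in KO; it was -1.30 and -0.91 with a pseudocount of 0.1, -1.30 and -0.99 on library totals, -1.12 and -0.81 for mural members alone, and -0.96 in WT as a median over members. The cause was not tested for the other changes. Depth limits the TRAP side: 7 members had a TRAP library at 3 counts or fewer.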
